A study of Mus musculus with 3 samples.

Results

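Translation initiation factors are the proteins that bring the initiator tRNA, the ribosomal subunits and the mRNA together at a start codon. Their genes were taken as those whose symbol starts with Eif and a digit from 1 to 6 in the annotation of the probes that the authors kept in their processed table. The Eif2ak kinase genes and Eif2s3x and Eif2s3y, the sex-linked genes of an eIF2 subunit, were left out. The rule found 37 genes among 9678 with a named probe. Each gene is represented by its probe with the highest mean, and 21 of the 37 have other probes as well. RefSeq lists 50 protein-coding mouse genes that match the rule, and the remaining 13 had no named probe: Eif1, Eif1ax, Eif2s1, Eif3e, Eif3g, Eif3j2, Eif3m, Eif4a3l1, Eif4e1b, Eif4ebp3, Eif4g1, Eif4g3 and Eif5a2. They were not analysed here.

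The arrays are Illumina BeadArrays, on which beads carrying a gene-specific probe are hybridised with biotin-labelled cRNA made from total RNA. They were run on 3 samples of the mouse line OS25, which is of embryonic stem (ES) cells, and the labels put all 3 in 1 group, undifferentiated ES cells. The labels give no genotype, sex or allele, and every sample shared a medium with foetal calf serum, β-mercaptoethanol, penicillin, streptomycin, glutamine, pyruvate, non-essential amino acids, human leukaemia inhibitory factor (LIF) and the selection drug hygromycin. The labels call the samples biological replicates and do not say whether they came from separate cultures. No condition is compared with another, so the data show which factors were measured above background and how far each varied between replicates, and no test of a difference was possible.

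In the textbook scheme, eIF2 carries the initiator tRNA to the small ribosomal subunit together with GTP, and eIF2B recharges eIF2 with GTP afterwards. The small subunit is held open for scanning by eIF1, eIF1A and the many-subunit eIF3, while eIF4F (the cap-binding protein eIF4E, the scaffold eIF4G and the helicase eIF4A) prepares the mRNA. At the start codon eIF5 triggers GTP hydrolysis on eIF2, and eIF5B then joins the large subunit. ES cells are known for a low rate of translation that increases on differentiation, and phosphorylation of eIF2 and of the eIF4E binding proteins is a main point of control in mammalian cells; arrays of mRNA see neither phosphorylation nor translation.

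Levels are normalised log2 intensities, with error as the SD over n = 3 arrays. A brighter probe does not show a more abundant mRNA than another probe, because probes differ in how they bind, so each level is compared only with that of the same probe on the other arrays. The arrays had median raw intensities of 74.9 to 80.7, and 14515 to 15865 of the 45281 probes were above background. Replicate 1 stood apart: its correlation (Pearson's r across the 7950 detected genes, which are not independent) was 0.944 with replicate 2 and 0.946 with replicate 3, whereas those arrays had an r of 0.991 with each other. Since RNA came from whole samples, fewer expressing cells and less RNA per cell cannot be told apart. Of the 21 ES cell markers examined, 9 had a named probe and 5 of these were detected (Klf2, Klf4, Klf5, Tbx3 and Lefty1), while Zfp42, Tfcp2l1, Fbxo15 and Tet1 were not. The defining genes Pou5f1, Nanog, Sox2 and Esrrb had no named probe, and whether they lacked a probe, had an unnamed one or were at background on all arrays cannot be told apart here. Of 16 fibroblast markers, 14 had a named probe and 12 were detected. The detected share was 85.7% for the fibroblast list, near the 82.1% of all named genes. For the ES cell list it was 55.6%, from only 9 named genes. Both shares count only genes kept in a table largely filtered on detection, so they cannot show the cell type. No named probe was found for 12 of the 21 ES cell markers and 2 of the 16 fibroblast markers. These marker genes thus do not bear out the label, and whether they show another cell type was not tested. The samples are undifferentiated ES cells by label only. The summed normalised intensity of the named markers was 1214, 1844 and 1706 for the ES cell list and 25574, 38201 and 34081 for the fibroblast list on replicates 1, 2 and 3. On replicate 1, against the mean of the other two arrays, the detected fibroblast markers went both ways, with 5 higher and 7 lower and a median of −0.06. Pdgfra was at 9.59, 6.07 and 5.84 and Thy1 at 6.81, 9.85 and 9.49 on replicates 1, 2 and 3. Dcn had the widest range of the fibroblast list, at 12.28, 6.77 and 5.42. It is not among the detected markers because its detection p was 0.0128 on replicate 3. Of the detected ES cell markers, 2 were higher and 3 lower, with a median of −0.61. The part of such differences in the values below was not tested.

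All 37 initiation factor genes were above background on all 3 arrays, at a detection p under 0.01 for the probe used. Among all 9678 named genes the share was 82.1%. The authors' table keeps every probe that passed this p on any of the arrays, with 934 that did not, so the members had largely passed such a filter before they were counted, and the full count is not a result about the factors. In 36 of the 37 genes the detection p was 0 on every array. The exception was Eif3h, a subunit of eIF3, with 0, 0 and 0.0021 on replicates 1, 2 and 3.

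The median range of the initiation factor genes, the highest minus the lowest array, was 0.31 log2 units, and the median over all detected genes was 0.41. With quantile normalisation and no background correction these medians were 0.31 and 0.33, and in the authors' values 0.30 and 0.32, a smaller gap. A range under 0.5 was found in 24 of the 37 (64.9%), where 61.0% of all detected genes had one. On the probes used, the narrowest ranges belonged to Eif2d (0.08), Eif1b (0.10) and Eif3i (0.10). Other detected probes had wider ranges, of 0.32 for Eif2d and of 0.42 and 0.30 for Eif3i, and Eif1b has a single probe. Eif2d, which can deliver tRNA to the ribosome outside the eIF2 pathway, was at 8.98, 8.95 and 9.03 on replicates 1, 2 and 3. A range above 1 log2 unit, which is over 2-fold, was found in 3 genes (8.11%), and 10.1% of all detected genes had one, so the count was near the background. The share of all genes was 5.9% with quantile normalisation alone and 5.77% in the authors' values, where the count of factors was still 3. These were Eif4e3, Eif1a and Eif5, and in each of them replicate 1 was the array apart. Without replicate 1 no initiation factor gene spanned over 2-fold, and the widest difference between replicates 2 and 3 was 0.33. Only 36 of all 7950 detected genes differed over 2-fold between those arrays, so the count of 0 is not particular to the factors. A range with an array left out also cannot exceed the range over all arrays.

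**Figure D1:**
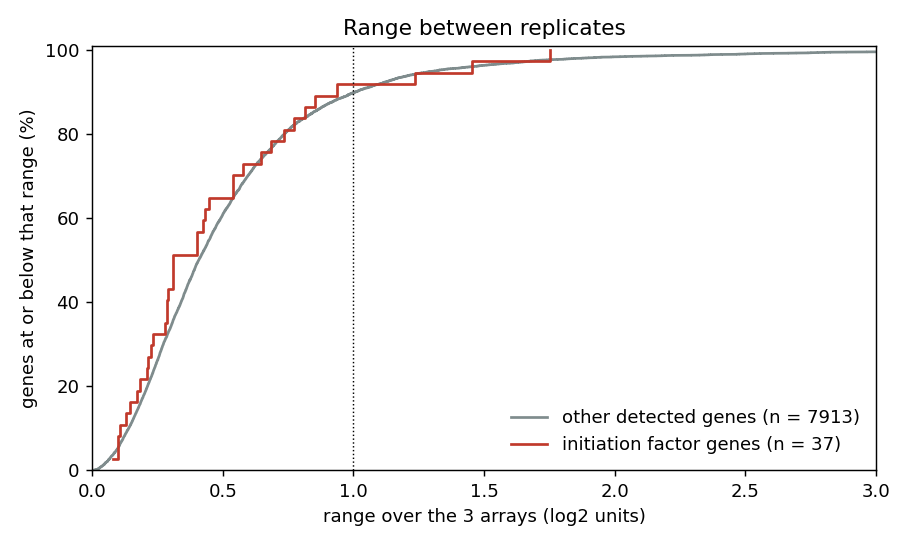
Cumulative share of genes (y axis, percent) whose range over the 3 arrays is at or below the value on the x axis (log2 units), for the 37 initiation factor genes and for the other detected genes. The curves run close together, and 3 initiation factor genes lie right of the dotted line at 1 log2 unit.

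Over the 37 genes, the median absolute difference of replicate 1 was 0.23 from replicate 2 and 0.29 from replicate 3, and that of replicates 2 and 3 from each other was 0.14. In the same order, the medians over all detected genes were 0.31, 0.33 and 0.14. Replicate 1 did not move the factors in 1 direction. In 13 of the 37 genes it had the highest level, where 43.3% of all detected genes did, and in 17 the lowest, where 43.4% did. Replicate 2 was highest in 6 of the 37, where 28.1% of all detected genes had it highest. Set against the mean of the other two arrays, the median over the 37 genes was −0.03 for replicate 1, −0.04 for replicate 2 and 0.11 for replicate 3. The highest level was on replicate 3 in 18 of the 37, against 28.6% of all detected genes, and in 2 of the 37, against 4.79%, when arrays were not normalised to each other. Replicate 3 was above replicate 2 in 26 of the 37, against 47.8% of all detected genes, and in 11 of the 37, against 17.7%, with no such normalisation. Without it the median of all genes on replicate 1 stood 0.39 above the mean of the other two arrays. The direction of replicate 1 then turned in 11 of the 37 genes, each with a difference of less than 0.3 (Eif1b, Eif2b2, Eif2b5, Eif2d, Eif2s2, Eif3b, Eif4a2, Eif4b, Eif4ebp1, Eif4ebp2 and Eif5a).

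**Figure D2:**
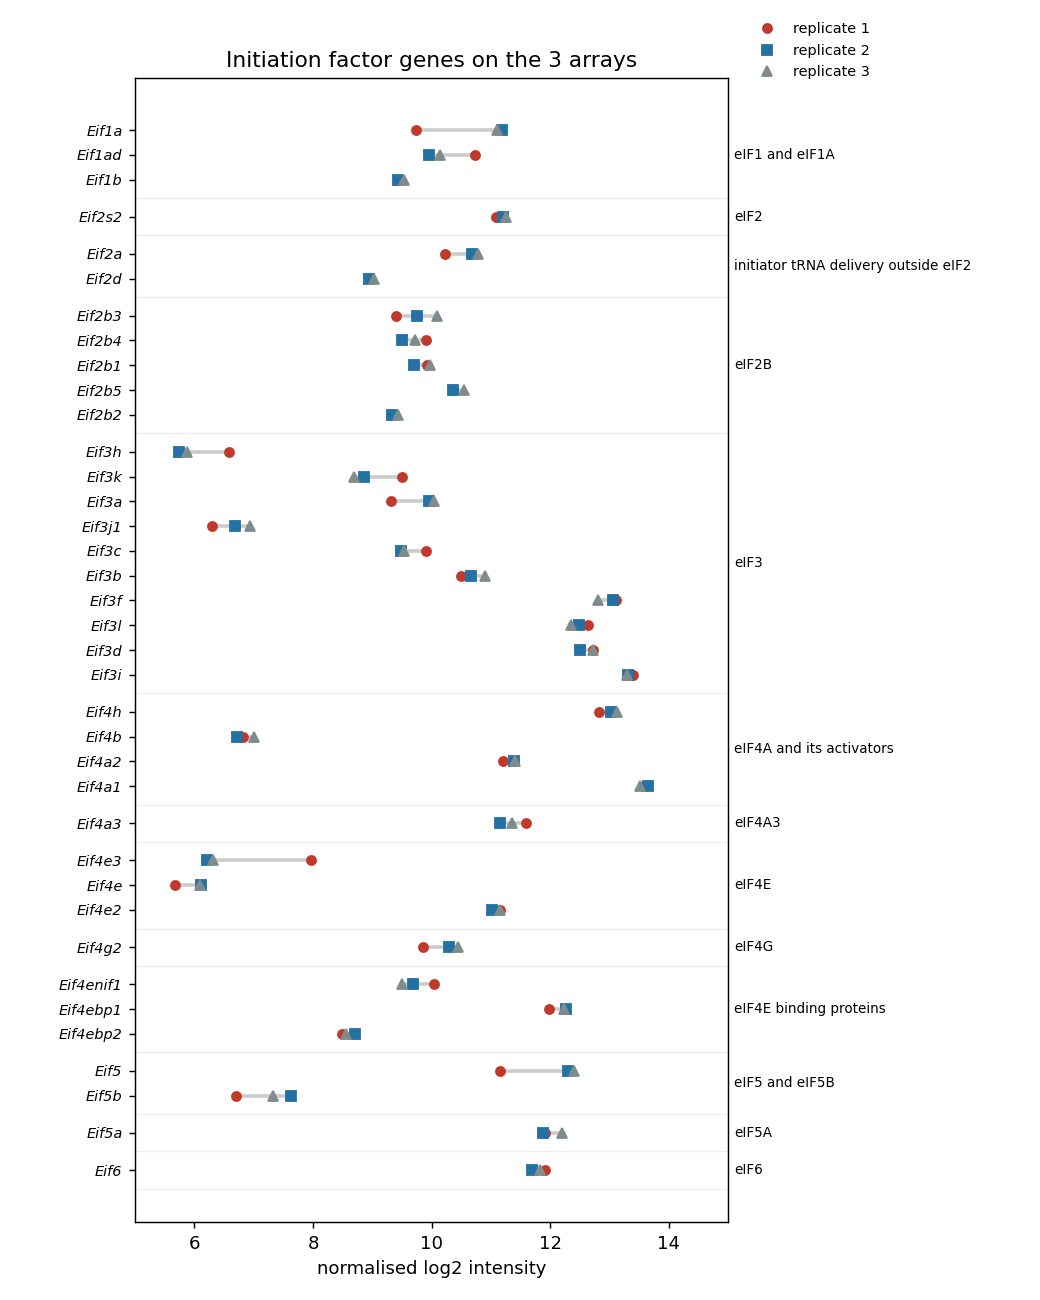
Normalised log2 intensity (x axis) of the 37 initiation factor genes on replicates 1, 2 and 3, grouped by complex or factor; the grey line joins the lowest and highest array. Replicate 1 lies apart from close pairs of replicates 2 and 3 in Eif1a, Eif4e3 and Eif5, and most other genes have overlapping points. Different rows are different probes and their levels are not comparable.

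The genes of the factors that handle the initiator tRNA had ranges between 0.08 and 0.69. Eif2s2 encodes the beta subunit of eIF2 and was at 11.09, 11.20 and 11.26 on replicates 1, 2 and 3 (11.18 ± 0.09, n = 3). It is the only eIF2 subunit gene measured here, since Eif2s1 had no named probe. The gene for eIF2A, a separate protein that can deliver initiator tRNA at non-standard start sites, was lower on replicate 1, with Eif2a at 10.23, 10.69 and 10.78 (10.57 ± 0.29, n = 3). All 5 subunit genes of the exchange factor eIF2B were measured. The catalytic subunit gene Eif2b5 was at 10.35, 10.36 and 10.54 (10.42 ± 0.10, n = 3), and Eif2b2, of a regulatory subunit, at 9.32, 9.34 and 9.43 (9.36 ± 0.06, n = 3). The widest range in the complex was that of Eif2b3, which partners the catalytic subunit, at 9.40, 9.75 and 10.08 (9.74 ± 0.34, n = 3). Its levels were spread evenly, with no array apart. The other regulatory subunit genes were Eif2b4 at 9.90, 9.50 and 9.73 and Eif2b1 at 9.92, 9.70 and 9.97. On the probes used, Eif2b4 was the one eIF2B gene highest on replicate 1. A second probe of Eif2b1 was also highest there, at 9.49, 9.01 and 8.97.

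Among the factors that open the small subunit for scanning, the 2 genes related to eIF1A moved in opposite directions on replicate 1. Eif1a, an eIF1A gene, was at 9.73, 11.18 and 11.10 on replicates 1, 2 and 3 (10.67 ± 0.82, n = 3). Replicate 1 was thus 1.45 below replicate 2, while replicates 2 and 3 differed by 0.08. A single probe reports Eif1a, and its X-linked paralogue Eif1ax had no named probe, so how far the probe also binds that transcript was not tested. Eif1ad, which encodes a protein with an eIF1A-like domain, was at 10.73, 9.96 and 10.14 (10.28 ± 0.40, n = 3) and highest on replicate 1. Its other probes disagreed: one was also highest on replicate 1 (9.36, 8.89 and 9.08), and the dimmest was lowest there (7.57, 7.71 and 8.11). Eif1b, a paralogue of the start codon selection factor gene Eif1, was at 9.46, 9.43 and 9.53 (9.47 ± 0.05, n = 3), among the steadiest genes of the set.

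The 10 measured subunits of eIF3, the scaffold that binds the small subunit and eIF4G, had ranges between 0.10 and 0.85, and none spanned over 2-fold. On replicate 1, 6 of them had their highest level, 3 their lowest and 1 its middle level. Eif3h was at 6.58, 5.73 and 5.88 (6.06 ± 0.46, n = 3), and its raw intensity was 173, 108 and 103, not far above the array medians. Eif3k, of a small subunit, was at 9.50, 8.86 and 8.69 (9.02 ± 0.43, n = 3), likewise highest on replicate 1. A dimmer probe of Eif3k did not share this, at 5.48, 5.74 and 5.49, but its raw intensity was low, at 109, 108 and 93. The core scaffold gene Eif3a went the other way, at 9.31, 9.95 and 10.05 (9.77 ± 0.40, n = 3), as did Eif3j1, of a loosely bound subunit, at 6.30, 6.69 and 6.94 (6.64 ± 0.33, n = 3). Eif3b and Eif3c lay between these. Eif3b was at 10.49, 10.67 and 10.89, with replicate 1 lowest except when arrays were not normalised, and Eif3c at 9.91, 9.48 and 9.53, with replicate 1 highest. Eif3a, Eif3b and Eif3c thus did not share a direction on replicate 1. On the probes used, the remaining genes had ranges of 0.31 or less. Eif3i was at 13.40, 13.31 and 13.30 (13.34 ± 0.06, n = 3) and Eif3d, whose product can bind the cap of some mRNAs, at 12.72, 12.50 and 12.73 (12.65 ± 0.13, n = 3). Eif3f was at 13.11, 13.05 and 12.81, and Eif3l at 12.64, 12.48 and 12.36, both with replicate 1 highest and replicate 3 lowest.

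Genes of the eIF4A helicases and their activators had ranges of 0.13 to 0.31. Eif4a1 was at 13.59, 13.64 and 13.52 (13.58 ± 0.06, n = 3), and its second probe had nearly as narrow a range (0.15). Eif4a2, the paralogue that also unwinds mRNA in eIF4F, was at 11.20, 11.40 and 11.42 (11.34 ± 0.12, n = 3). Eif4h and Eif4b encode proteins that stimulate the helicase. Eif4h was at 12.82, 13.02 and 13.13 (12.99 ± 0.16, n = 3) and Eif4b averaged 6.84 ± 0.15 (n = 3), with a range of 0.29. Eif4a3, despite its name a part of the exon junction complex that marks spliced mRNA, was at 11.59, 11.16 and 11.35 (11.37 ± 0.21, n = 3), highest on replicate 1.

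The cap-binding genes held the widest range of the set. Eif4e3, the gene of a cap-binding protein that differs from eIF4E in its binding pocket, was at 7.96, 6.21 and 6.31 on replicates 1, 2 and 3 (6.82 ± 0.98, n = 3), a range of 1.75. Replicate 1 was far above the other two arrays, which differed by 0.10. The raw intensity of that probe was 358, 128 and 120. Both other probes of Eif4e3 were also highest on replicate 1. The brighter of them was at 7.24, 5.24 and 5.62, with detection p of 0, 0.016 and 0.0064, and the dimmer was above background on replicate 1 alone, with detection p of 0.0021, 0.2521 and 0.3045. Eif4e, which encodes the main cap-binding protein, was at 5.67, 6.12 and 6.10 (5.96 ± 0.25, n = 3). The difference of replicate 1 from the mean of the other two arrays was −0.44 for Eif4e, −0.21 in the authors' values and −0.05 with no normalisation between arrays. The raw intensity of Eif4e was low, at 111 to 123, with array medians of 74.9 to 80.7. For Eif4e3 the range was 1.23 when no background was subtracted. Eif4e2, which encodes a cap-binding repressor of translation, was at 11.16, 11.01 and 11.15 (11.11 ± 0.08, n = 3). The dimmer probes of Eif4e2 were both lowest on replicate 1, at 7.81, 8.15 and 8.32 and at 6.68, 7.20 and 7.18.

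Other partners of the cap-binding complex had narrower ranges than Eif4e3, at 0.58 or less, though Eif4g2 and Eif4enif1 had wider ones than Eif4e and Eif4e2. Eif4g2 encodes a relative of the eIF4G scaffold that lacks the eIF4E binding site, and it was at 9.86, 10.30 and 10.44 (10.20 ± 0.30, n = 3), lowest on replicate 1. A second probe of Eif4g2 was not, at 8.63, 8.40 and 8.61. The eIF4E binding proteins keep eIF4E from eIF4G until mTOR phosphorylates them. Eif4ebp1 was at 11.97, 12.26 and 12.24 (12.16 ± 0.16, n = 3) and Eif4ebp2 at 8.49, 8.71 and 8.55 (8.58 ± 0.11, n = 3), both with replicate 1 lowest by less than 0.3, a direction that turned with no normalisation between arrays. Eif4enif1 encodes a protein that takes eIF4E into the nucleus and represses mRNAs in the cytoplasm, and it was at 10.03, 9.68 and 9.50 (9.74 ± 0.27, n = 3), with replicate 1 highest.

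The genes for the last steps, start codon commitment and subunit joining, were both lowest on replicate 1. Eif5, which encodes the factor that makes eIF2 hydrolyse GTP, was at 11.16, 12.31 and 12.40 on replicates 1, 2 and 3 (11.95 ± 0.69, n = 3), a range of 1.24. Its other probes were lowest on replicate 1 too, with 10.36, 11.40 and 11.33 and with 8.70, 9.83 and 9.88. Replicate 1 was between 1.01 and 1.19 below the mean of the other two arrays on the 3 probes. Eif5b, which encodes the GTPase that joins the large subunit, was at 6.70, 7.64 and 7.32 (7.22 ± 0.48, n = 3). A single probe reports Eif5b, with a low raw intensity of 182, 247 and 186. The difference of replicate 1 from the mean of the other two arrays was −0.78 for Eif5b. It was −0.54 in the authors' values and −0.34 with no normalisation between arrays. With no normalisation between arrays the range of Eif5 was 0.90, and those of Eif1a and Eif4e3 were still above 1, at 1.18 and 2.17.

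**Figure D3:**
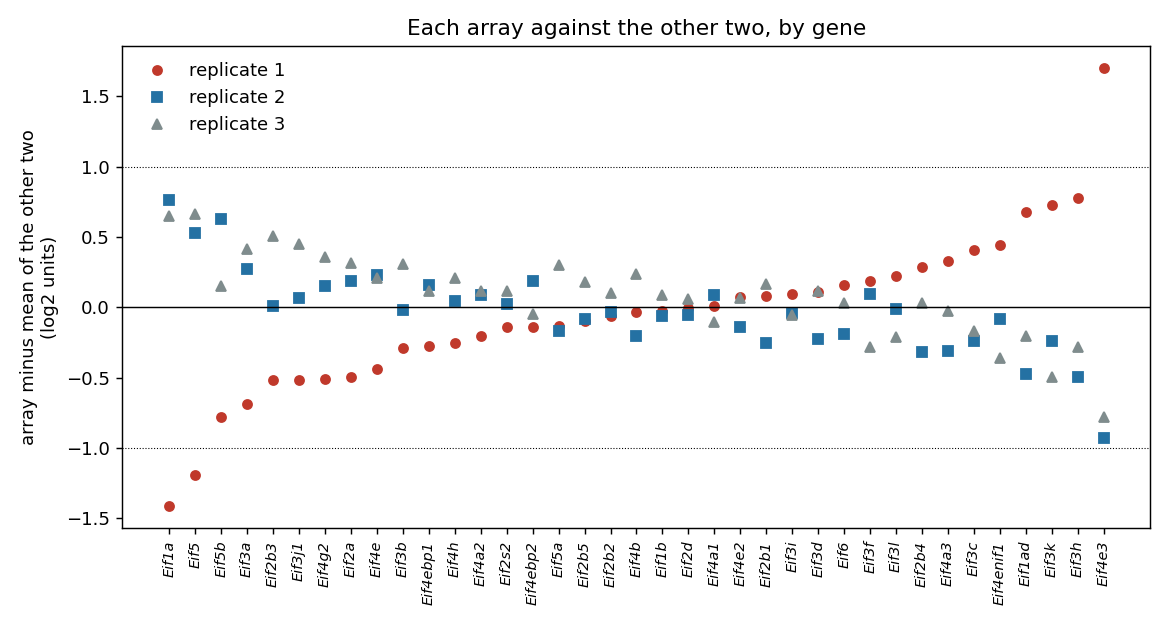
Each array minus the mean of the other two arrays (y axis, log2 units) for the 37 initiation factor genes, ordered by the value of replicate 1; dotted lines mark 1 log2 unit either way. Replicate 1 lies beyond these lines in Eif1a and Eif5 (lower) and in Eif4e3 (higher), and neither of the other arrays passes them in any gene.

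Counted over all the factors, 7 genes were more than 0.5 lower on replicate 1 than the mean of the other two arrays (Eif1a, Eif5, Eif5b, Eif3a, Eif2b3, Eif3j1 and Eif4g2) and 4 were more than 0.5 higher (Eif4e3, Eif3h, Eif3k and Eif1ad). Among all detected genes, 15.9% were this much lower and 14.1% this much higher, so both counts (18.9% and 10.8% of the factors) were near the background. The counts were 4 and 3 (10.8% and 8.11%) with quantile normalisation alone and in the authors' values. The shares of all genes were then 11.7% and 9.86%, and 11.5% and 9.71%. With no normalisation between arrays the counts were 2 and 8 (5.41% and 21.6%), against 5.62% and 40.8% of all genes. Beyond 1 log2 unit there were 2 lower genes, where 4.45% of all detected genes lay, and 1 higher gene, where 3.26% lay. Both groups mix factors of different steps.

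Several probes of a gene allow a comparison within the gene. At least 2 detected probes were available for 19 genes. Replicate 1 deviated from the other two arrays in the same direction on every detected probe in 11 of them and in opposite directions in 8. The same share over all genes with several probes was not computed, so these counts are not a result about the factors. The 11 were Eif5, Eif5a, Eif2s2 and Eif4a2, with a negative deviation, and Eif2b1, Eif3c, Eif3f, Eif3i, Eif3l, Eif4a1 and Eif4enif1, with a positive one. On the probe with the highest mean, the sign turned in Eif5a, Eif2s2 and Eif4a2 with no normalisation between arrays, in Eif5a and Eif4a1 without replicate 3 and in Eif2b1 without replicate 2. Eif5 was the gene with the largest deviation that all detected probes shared. Where probes were opposed, as in Eif1ad, Eif3k and Eif4g2, the direction given for replicate 1 depended on the probe.

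**Figure D4:**
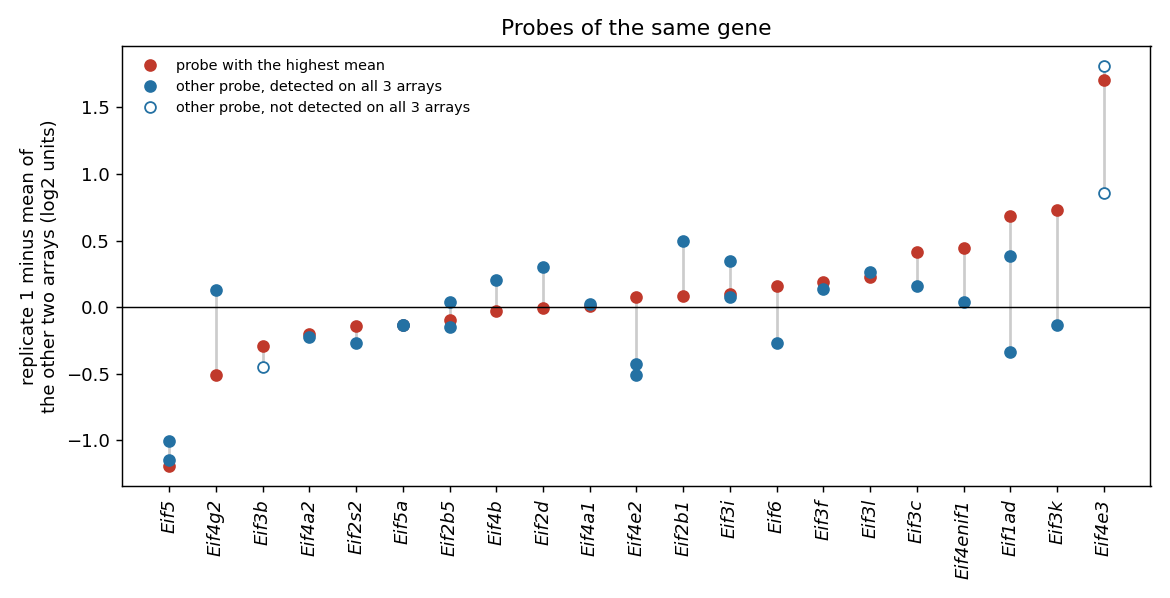
Replicate 1 minus the mean of the other two arrays (y axis, log2 units) for every probe of the 21 genes with more than 1 named probe, ordered by the probe with the highest mean; filled circles are probes detected on all 3 arrays, open circles are not. The 3 probes of Eif5 lie together below −1, the 3 of Eif4e3 all lie above 0, and in genes such as Eif1ad and Eif3k the probes lie on both sides of 0.

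The 2 genes of factors that act after or apart from start site choice had ranges of 0.31 and 0.23. Eif5a encodes the hypusine-carrying protein that helps ribosomes through difficult peptide bonds, and it was at 11.90, 11.88 and 12.19 (11.99 ± 0.17, n = 3). Its 3 probes agreed to within 0.01 in the deviation of replicate 1 (−0.13 each), though replicate 1 was its middle array on the probe used. Eif6, which keeps the large subunit from joining too early, was at 11.92, 11.69 and 11.83 (11.81 ± 0.12, n = 3).

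The upstream sequences of some genes that deviated on replicate 1 are shown so that the letters before their start sites can be compared. Promoter windows were found in RefSeq's table (GRCm38.p6) for 29 of the 37 genes, and the 250 bases before the start site were searched on both strands for the E-box CACGTG, the ETS motif CCGGAAG, the GC box GGGCGG, the CCAAT box, the TATA box TATAAA and the cyclic AMP response element TGACGTCA; none of these motifs contains another. Shown are the 3 lowest and the 2 highest genes on replicate 1 among those with a window, 5′ to 3′, with motif matches in capitals. Eif1a deviated further down than any gene shown, and Eif4e3 and Eif3h further up, but they were not among those with a window.
Eif5 (chr12:111537851-111538100, plus strand): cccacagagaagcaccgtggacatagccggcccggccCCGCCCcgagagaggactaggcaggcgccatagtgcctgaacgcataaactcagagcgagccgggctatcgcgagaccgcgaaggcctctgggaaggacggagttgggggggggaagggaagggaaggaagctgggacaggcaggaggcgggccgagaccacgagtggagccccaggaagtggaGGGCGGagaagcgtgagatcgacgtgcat
Eif5b (chr1:37997760-37998009, plus strand): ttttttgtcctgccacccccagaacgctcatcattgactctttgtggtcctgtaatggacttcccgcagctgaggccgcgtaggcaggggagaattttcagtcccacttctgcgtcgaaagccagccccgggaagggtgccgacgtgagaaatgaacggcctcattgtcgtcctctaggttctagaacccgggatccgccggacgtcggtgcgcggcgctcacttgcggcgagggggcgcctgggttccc
Eif3a (chr19:60790694-60790943, minus strand): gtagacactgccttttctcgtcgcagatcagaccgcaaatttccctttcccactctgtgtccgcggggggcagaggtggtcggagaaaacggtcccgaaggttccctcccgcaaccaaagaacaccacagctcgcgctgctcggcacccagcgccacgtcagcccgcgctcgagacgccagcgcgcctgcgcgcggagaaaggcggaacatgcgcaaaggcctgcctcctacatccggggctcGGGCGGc
Eif3k (chr7:28981889-28982138, minus strand): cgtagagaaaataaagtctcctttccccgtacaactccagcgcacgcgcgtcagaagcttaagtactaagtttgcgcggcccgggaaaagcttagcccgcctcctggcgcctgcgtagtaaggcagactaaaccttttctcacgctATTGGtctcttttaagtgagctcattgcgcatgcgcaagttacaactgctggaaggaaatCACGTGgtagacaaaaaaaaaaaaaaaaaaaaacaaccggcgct
Eif1ad (chr19:5366563-5366812, plus strand): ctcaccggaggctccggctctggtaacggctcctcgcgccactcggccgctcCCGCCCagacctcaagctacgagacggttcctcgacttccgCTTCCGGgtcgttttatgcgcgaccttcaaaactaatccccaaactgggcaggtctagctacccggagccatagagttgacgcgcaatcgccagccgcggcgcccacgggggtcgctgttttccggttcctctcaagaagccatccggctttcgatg
The windows of Eif5, Eif5b and Eif3a, all lower on replicate 1, shared no motif across the 3: Eif5 has 2 GC boxes, Eif3a has 1 and Eif5b has no match. Eif3k, higher on replicate 1 on the probe used, has a CCAAT box and an E-box, and Eif1ad, likewise higher, has a GC box and an ETS motif. A dimmer probe of each was lowest on replicate 1, though for Eif3k only just, at 5.48 against 5.49 on replicate 3. Over the 29 genes, the E-box was present in 7 (24.1%), against 10.5% of 6552 detected genes and 6.86% of all 27025 genes with a window. The 7 are Eif1b, Eif3f, Eif3k, Eif4a1, Eif4e, Eif4h and Eif5a. The ETS motif was present in 27.6%, against 17.6% of detected genes, and the GC box in 75.9%, against 68.1%. The CCAAT box was found in 34.5%, against 41.5% of detected genes, the TATA box in 6.9%, against 7.37%, and the cyclic AMP response element in 0 of the 29 windows, against 3.22%. A match describes letters and not binding, and the motifs were not tested against the levels.

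The wider pathway was measured from a fixed list of 35 co-factors and regulators of initiation, of which 30 had a named probe. Of these, 29 (96.7%) were detected, against 82.1% of all named genes. The 30 came from the same filtered table as the factors, so this count is not a result about them. None of the 29 spanned over 2-fold, against 10.1% of all detected genes. Their median range was 0.39, against 0.41 over all detected genes. The widest belonged to Denr, which acts with Mcts1 in recycling and reinitiation, at 7.37, 8.22 and 8.27 on replicates 1, 2 and 3. Trib3, a target of the stress response that phosphorylated eIF2 starts, was at 10.21, 9.98 and 9.33, with replicate 3 lowest. Pabpc4, which encodes a poly(A) binding protein, was at 10.69, 11.36 and 11.50, and the helicase gene Ddx3x at 6.82, 7.18 and 7.46. The single named gene not detected on all 3 arrays was Rps6kb2, of an S6 kinase downstream of mTOR, with detection p of 0.0011, 0.0897 and 0.0951. Both measured eIF2 kinase genes were detected, with Eif2ak1 at 9.10, 8.84 and 8.74 and Eif2ak2 at 10.58, 10.23 and 10.50.

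Genes of elongation and termination, the next steps of translation, were detected in 18 of 18 named cases from a list of 19. The share of all named genes was 82.1%, and the 18 came from the same filtered table. The list also holds Mtif2 and Mtif3, of mitochondrial initiation, and Eef1e1, of a tRNA synthetase complex. The median range over the 18 was 0.22, against 0.41 over all detected genes. The median of all genes was 0.33 with quantile normalisation alone and 0.32 in the authors' values. That of the 18 is not given here for those settings, so whether the gap holds was not tested. The widest range was that of Etf1, which encodes the release factor eRF1 that reads stop codons, at 10.71, 11.66 and 11.82. Its partner gene Gspt1, of the release factor GTPase, was at 11.83, 12.34 and 12.41, also lowest on replicate 1. Eef2k, of the kinase that inhibits elongation, was at 5.37, 6.04 and 6.07, and the mitochondrial factor gene Gfm2 at 7.97, 7.44 and 7.47. Eef1a1, which encodes the main tRNA carrier of elongation, was at 14.39, 14.39 and 14.43. Of the 18 genes, 1 spanned over 2-fold (5.56%, against 10.1% of all detected genes), and the highest level was on replicate 3 in 11, against 28.6% of all detected genes, or in 3, against 4.79%, with no normalisation between arrays.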

How the data were processed

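Total RNA of 3 samples was measured; per the labels' protocols RNA extraction used Trizol and DNase I, and biotinylated cRNA was made. The deposited unprocessed table gives, per the file headers, an intensity per probe and array on a linear scale, and a detection p-value, which sets the probe against the negative controls of the array. The authors' processed table holds log2 intensity for 17754 of 45281 probes; once sorted, its 3 columns differ by at most 0.00036. Limma is named in the submitters' processing notes; version and filter were not given in the sources used here. Of the kept probes, 15045 had 1 gene symbol, 5 had several and 2704 had none; symbols were updated by Entrez identifier (15026 probes, all 37 members).

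The intensities were background-corrected, given an offset of 16 and quantile normalised with neqc in limma 3.58.1 (R 4.3.3); summaries used Python 3.11.15 and pandas 2.3.3. The steps were tested on simulated data. A gene was detected at p under 0.01 on all 3 arrays. The number of arrays limits the precision. No groups exist, so no test was run. Values per array are given for genes with a range above 1 log2 unit, the 2 widest of each complex, the 3 narrowest and paralogue pairs, and others were added after the values were seen. Of the further lists, the 4 widest detected genes and any few undetected ones are named by rule; Eif2ak1, Eif2ak2 and Eef1a1 were added later. The members and lists were chosen with earlier results of these data known. Alternatives were other detection thresholds, probe rules and normalisations, the authors' values, and each replicate left out.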

Additional observations from a re-analysis of the deposited data

How the results depend on the processing

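No paired analysis was possible because there is 1 group. All 37 initiation factor genes stayed detected at p under 0.05, on at least 1 array, by any probe and without each replicate; 36 were at p under 0.001, and 35 when every probe had to be detected (Eif3b and Eif4e3 each have dimmer probes that were not). Co-factor genes ranged from 26 to 30 and elongation genes from 17 to 18 over the same alternatives. The median range moved between 0.30 and 0.42 over the value settings and between 0.14 and 0.29 with a replicate left out. Leaving out an array can only narrow a range or keep it. The 3 genes spanning over 2-fold were the same 3 with quantile normalisation alone, with the authors' values and with the mean of a gene's detected probes. With no normalisation between arrays 6 (16.2%) spanned over 2-fold, against 18.1% of all detected genes: Eif5 left, and Eif1ad, Eif3h, Eif3k and Eif4enif1 came in. Leaving out a replicate gave 0 to 3, with 0 without replicate 1. The median of replicate 1 against the other two arrays was 0.29 with no normalisation, when that of all genes was 0.39; elsewhere it lay between −0.08 and 0.02. The cause was not tested. For single genes and for the counts past 0.5 or highest on replicate 3, alternatives were chosen after the data were examined. The direction of replicate 1 held in all 37 genes under quantile normalisation alone and under the authors' values, in 33 with the mean of a gene's detected probes, in 26 with no normalisation (31 relative to all genes), in 35 without replicate 2 and in 32 without replicate 3. For Eif4e3 the range was 1.20 in the authors' values and 1.23 without background correction.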
